A study of Rattus norvegicus with 6 samples.

Results

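Kinesins are motor proteins that use ATP to walk along microtubules or to take them apart. Some are made for cell division, where they push spindle poles apart, move chromosomes and build the midzone at which the daughter cells separate. Others work between divisions and carry vesicles, organelles and RNA, as kinesin heavy chains joined by light chains or other adaptors, and in kidney tubule cells they serve apical and basolateral delivery and the primary cilium.

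The kinesin superfamily was read here as every gene whose platform symbol starts with Kif or Klc, which gave 36 of 14217 measured genes. They were read by 66 probe sets, and each gene was read from its brightest probe set on average over the 6 arrays. By known role, 11 were mitotic kinesins, 18 were motors, light chains or adaptors of cargo transport, and 7 had other or mixed roles. The cells were NRK-52E, a cell line from rat kidney tubules, and all had received TGF-β1 at 10 ng/mL for 24 h. The arrays labelled shAMPKα2 (n = 3) came from cells infected with a lentivirus whose hairpin RNA is aimed at AMPKα2 (a catalytic part of the energy-sensing AMP-activated protein kinase), and those labelled shCtrl (n = 3) from cells infected with a control virus. The labels number the arrays of each group as biological replicates, and they do not say whether clones or mixed populations of infected cells were used. Cells without TGF-β1 or without lentivirus were not analysed here.

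The arrays carried 1 deposited log2 value per probe set, with array medians of 6.04 to 6.05 under the AMPKα2 hairpin and 5.82 to 5.83 in the control. The values were spread less widely under the hairpin, with SDs over probe sets of 1.76 to 1.82 against 2.17 to 2.19. With them, genes of low level tended to be higher and genes of high level lower under the hairpin, so the kinesins were also compared after quantile normalization, cyclic loess and median centring. Prkaa2, the hairpin's target, changed by -0.21 on the log2 scale (SE 0.09), a change short of the threshold (limma, adjusted p = 0.0552) that passed as lower after median centring (-0.42), while Prkaa1, the other catalytic subunit, fell by 2.34 (adjusted p = 7.04e-09). Groups are therefore named as the labels name them. Of 7 measured tubule markers, 5 lay in the lowest 25% of genes by level, among them Epcam at 2.97 and Krt18 at 3.53 on the control arrays, while Krt8 stood at 12.49 and Pax8 at 6.57. Of these 7, 5 passed as higher and 1 as lower. Markers that passed as higher numbered 5 of 5 for fibroblasts, 2 of 3 for endothelium and 3 of 4 for leukocytes (1 was lower), where 43.6% of all genes did, and 77.9% to 85.3% in the lowest 3 deciles of level, which held most of these markers. With cyclic loess Dcn, a fibroblast marker, and Kdr, an endothelial one, did not pass. Of the tubule markers that were higher as deposited, Krt18 (-0.06), Krt7 (-0.06), Epcam (0.23) and Cdh16 (-0.07) did not pass there either. Among tubule markers only Pax8 stayed higher with cyclic loess, while Krt8 did not pass and Krt19 passed as lower (-0.73). The part of these markers in the kinesin results was not tested. Precision is limited by the number of arrays, and no detection calls were used, so whether genes of low level were above background was not checked.

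All 11 mitotic kinesins fell under the AMPKα2 hairpin, and 10 of them fell at least 2-fold. Their median log2 fold change was -2.65, and they ranged from -3.07 for Kif20a to -0.93 for Kif14. Cargo-transport kinesins had no common direction. Of the 18, 8 fell, 7 rose and 3 missed the threshold, and their median was 0.01. Among all genes the median was 0.05, and 41.5% passed as lower, 43.6% as higher and 85.1% in either direction (limma, Benjamini-Hochberg adjusted p under 0.05). A fall of at least 2-fold was seen in 18.6% of all genes and a rise of that size in 11.6%. Such falls were found in 5 cargo-transport kinesins and such rises in 2. The medians of both classes differed by -2.66, a value that a shift common to a whole array leaves as it is, which became -2.46 with quantile normalization and -2.23 with cyclic loess.

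**Figure D1:**
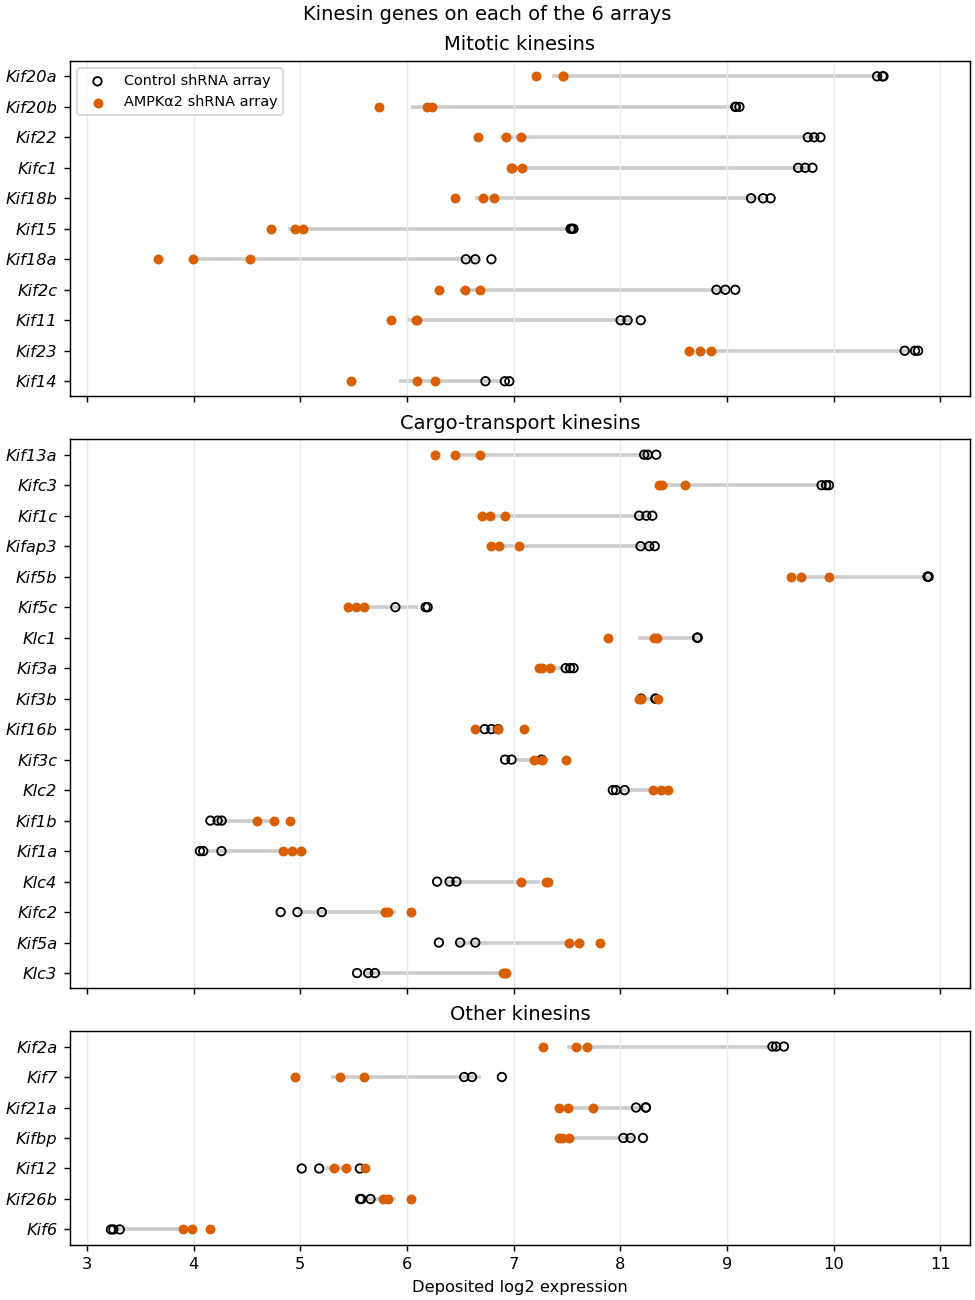
Deposited log2 expression (horizontal axis) of the 36 kinesin genes, 1 row per gene, on the 3 AMPKα2 shRNA arrays (filled points) and the 3 control arrays (open points), with a grey bar between the group means. All 11 mitotic kinesins lie lower on every AMPKα2 shRNA array than on any control array, while cargo-transport kinesins lie on both sides of their controls. Of all measured genes, 87.1% have groups that do not overlap, in either direction.

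Genes of the G2 and M phases often carry a CCAAT box and, near the start site, a cell cycle homology region, a hexamer read by the DREAM and MuvB complexes. RefSeq promoters of GRCr8, from 250 bases before to 50 bases after the start site, were found for 31 of the 36 genes, and Kif14, Kifc3, Kifc2, Kif5a and Kif7 had no entry. The hexamer TTTGAA (or TTCAAA on the other strand) was in 5 of 10 mitotic kinesin promoters and in 0 of 15 of cargo transport, and in 13.3% of 11700 array genes with a promoter. Its variant TTCGAA, which reads the same on both strands, was in 0 of either class and in 2% of array genes. CCAAT (or ATTGG) was in 6 of 10 mitotic and 4 of 15 cargo-transport promoters, against 38.6%. Both the TTTGAA or TTCGAA hexamer and CCAAT were in 4 mitotic promoters, in 0 of cargo transport, in 1 of 6 of other roles (Kif26b) and in 6.16% of array genes. A hexamer and a CCAAT box can share 1 base at their ends, and a match describes letters only. Those 4 mitotic promoters are shown because they hold both motifs, beside that of Kif5b, a cargo motor with a CCAAT box and no hexamer. Each line gives the 160 bases that end at the base before the start site, with the motifs in capitals.
Kif20b: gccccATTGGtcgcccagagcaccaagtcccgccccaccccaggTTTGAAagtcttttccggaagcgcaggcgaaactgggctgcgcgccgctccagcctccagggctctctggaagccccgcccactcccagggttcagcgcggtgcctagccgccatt
Kif22: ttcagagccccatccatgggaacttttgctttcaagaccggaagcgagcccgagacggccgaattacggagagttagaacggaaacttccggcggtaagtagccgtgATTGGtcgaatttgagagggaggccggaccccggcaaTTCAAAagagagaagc
Kifc1: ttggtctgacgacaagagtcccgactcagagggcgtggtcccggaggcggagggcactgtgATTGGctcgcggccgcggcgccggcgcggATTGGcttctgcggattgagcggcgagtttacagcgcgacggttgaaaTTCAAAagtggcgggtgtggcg
Kif23: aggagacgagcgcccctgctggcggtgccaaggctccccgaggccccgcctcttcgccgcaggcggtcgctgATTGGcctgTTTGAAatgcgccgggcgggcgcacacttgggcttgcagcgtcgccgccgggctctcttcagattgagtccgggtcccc
Kif5b: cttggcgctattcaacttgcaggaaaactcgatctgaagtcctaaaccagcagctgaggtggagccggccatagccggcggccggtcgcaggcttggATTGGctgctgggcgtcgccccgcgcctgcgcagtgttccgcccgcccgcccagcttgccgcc
The windows lie at chr1:241840856-241841015 on the plus strand for Kif20b, chr1:191080879-191081038 on the minus strand for Kif22, chr20:5000769-5000928 on the plus strand for Kifc1, chr8:71320585-71320744 on the minus strand for Kif23 and chr17:56185226-56185385 on the plus strand for Kif5b. Counted from the start site, with -1 as the base before it, the hexamer began at -22 in Kifc1, at -16 in Kif22 and at -79 in Kif23. In Kif20b it began at -116 and also at bases 2 and 8 of the transcript. Kif15 held the hexamer at -46 and -249 and no CCAAT, while Kif20a and Kif11 held CCAAT and no hexamer. Kif18a, Kif18b and Kif2c held none of these motifs in the windows searched, and all 3 genes fell.

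The motors of the spindle midzone and of cytokinesis included Kif20a, which had the largest fall of the family in the deposited values. With cyclic loess its -2.34 was exceeded by Kif18a (-3.17), Kif15 (-2.89) and Kif20b (-2.56), and once quantile-normalized these 3 exceeded it too. Kif20a, which brings the chromosomal passenger complex to the midzone, read 7.46, 7.46 and 7.21 under the AMPKα2 hairpin and 10.46, 10.47 and 10.41 in the control. The groups were far apart, and it fell by 3.07 on the log2 scale (SE 0.09), or 8.37-fold (limma, adjusted p = 1.97e-09). Kif20b, a related motor of late cytokinesis, read 6.19, 6.24 and 5.74 against 9.08, 9.08 and 9.12. It fell by 3.04 (SE 0.12), with more spread among the hairpin arrays, where replicate 3 was lowest, than among the controls. Kif23, the motor of the centralspindlin complex, read 8.75, 8.85 and 8.64 against 10.67, 10.76 and 10.79 and fell by 1.99 (SE 0.09). Its other probe set fell by 1.13. Kif14, which brings citron kinase to the midbody, read 5.47, 6.09 and 6.26 against 6.96, 6.92 and 6.74. It fell least of the class, by 0.93 (SE 0.17, limma, adjusted p = 0.000436), and its hairpin arrays were the more scattered, with an SD of 0.42 against 0.12.

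Motors that set up the bipolar spindle fell together. Kif11, also known as Eg5, slides antiparallel microtubules and pushes the poles apart. It read 5.85, 6.09 and 6.09 under the hairpin and 8.07, 8.002 and 8.19 in the control and fell by 2.08 (SE 0.10). Its other probe set fell by 1.58. Kif15, which can take over part of the work of Kif11, read 4.72, 5.03 and 4.95 against 7.56, 7.55 and 7.53 and fell by 2.65 (SE 0.09). Kifc1, a minus-end motor that bundles microtubules at the poles, read 6.98, 7.07 and 6.99 against 9.67, 9.73 and 9.80, and fell by 2.72 (SE 0.08). None of these 3 genes had overlapping groups, a property that 87.1% of all genes shared.

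Kinesins that act on chromosomes and on microtubule ends fell to a like degree. Kif22, a motor bound to chromosome arms, read 6.93, 7.07 and 6.67 against 9.88, 9.76 and 9.82 and fell by 2.93 (SE 0.11). Kif18a dampens the swings of chromosomes at metaphase. It read 4.53, 3.66 and 3.997 against 6.55, 6.64 and 6.79, and its SD of 0.44 on the hairpin arrays was the widest in the family. It fell by 2.60 (SE 0.18). Kif18b, which trims astral microtubules, read 6.71, 6.45 and 6.82 against 9.23, 9.34 and 9.41 and fell by 2.66 (SE 0.11). Kif2c, the centromere-bound depolymerase MCAK, read 6.54, 6.69 and 6.30 against 8.90, 9.08 and 8.98 and fell by 2.48 (SE 0.11), and its other probe set fell by 2.26. All 4 genes lay lower on each hairpin array than on each control array. Groups did not overlap, in either direction, in 87.1% of all genes.

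The mitotic kinesins were set against genes of like level. Of the 11, 8 lay in deciles 6 to 10 by mean level, where the median change of all genes was itself negative, from -0.32 to -0.73. The median change was 0.80 in the third decile, which held Kif18a, and 0.64 in the fourth, which held Kif15, and Kif18a fell by 2.60 and Kif15 by 2.65. It was -0.69 in the eighth decile, which held Kif18b, Kif22 and Kifc1. All 11 mitotic kinesins lay below the lower quartile of change of their own decile, against 6 of 18 cargo-transport kinesins, with 4 of the latter above the upper quartile. The median difference from the decile's own median was -2.03 for mitotic and 0.08 for cargo-transport kinesins. All 11 mitotic kinesins passed as lower in each other scaling, where 28.9% of all genes (quantile normalization), 31.5% (cyclic loess) and 48.2% (median centring) did, and their medians there were -2.20, -2.06 and -2.86. In all 4 scalings 26.4% of all genes were lower. Of the 18 cargo-transport kinesins 9 passed as higher and 6 as lower with both quantile normalization and cyclic loess, while 6 passed as higher and 9 as lower with median centring. The shares of all genes that passed as higher were 43.8%, 40.2% and 35%.

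**Figure D2:**
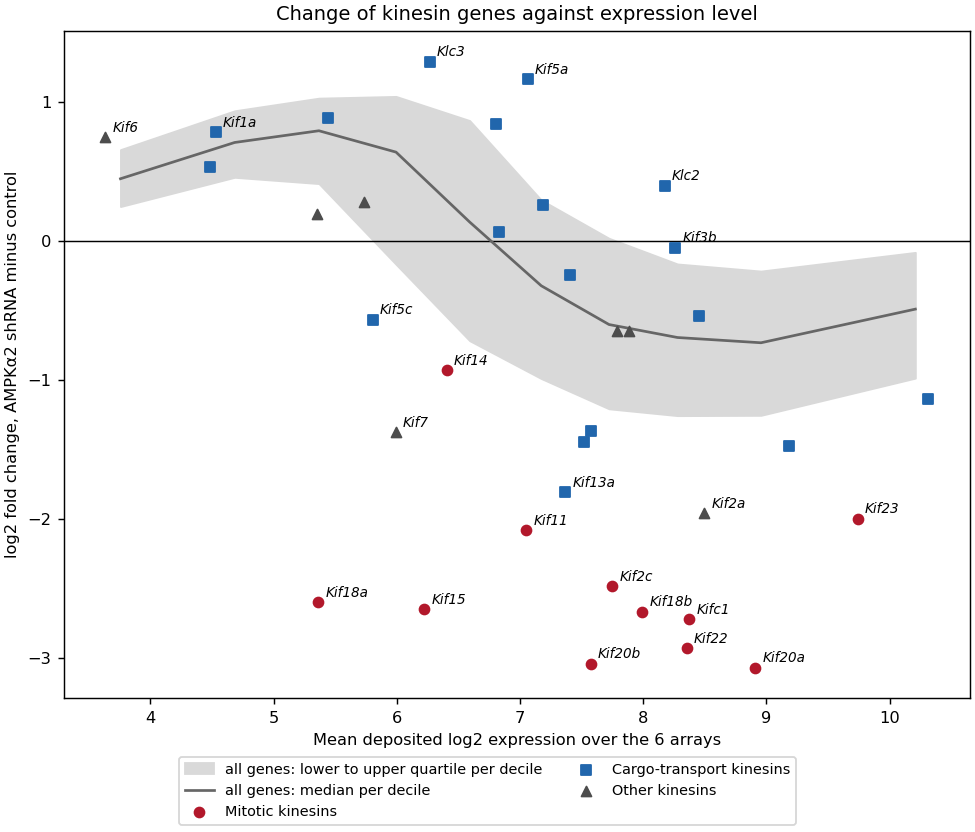
Log2 fold change of each kinesin gene (vertical axis, AMPKα2 shRNA minus control) against its mean log2 expression over the 6 arrays (horizontal axis), with the median (line) and the lower to upper quartile (grey) of all genes in each level decile. The mitotic kinesins (circles) lie below the grey band at every level, and cargo-transport kinesins (squares) lie below, within and above it.

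Other genes of division moved the same way. Of 24 listed partners and regulators of mitotic kinesins 22 were measured. Of these 20 fell, 0 rose and 2 missed the threshold, and the list's median was -2.28. The shares were 90.9% lower and 0% higher, against 41.5% and 43.6% of all genes. These partners lay in level deciles 6 to 10, where 54.4% to 75.1% of all genes were lower. Racgap1, which binds Kif23 in centralspindlin, fell by 3.81 (SE 0.13), from 10.51 ± 0.04 (SD, n = 3) to 6.70 ± 0.30. Mki67, which codes for the Ki-67 antigen, fell by 3.73 (SE 0.11), and Bub1b, a spindle checkpoint gene, fell by 3.29 (SE 0.08). Prc1, the microtubule crosslinker of the midzone, fell by 1.84 (SE 0.08). Cenpe, a kinetochore kinesin whose symbol lies outside the rule, read 6.10, 6.22 and 5.95 against 7.74, 7.74 and 7.71 and fell by 1.64 (SE 0.09). Mapre1 and Numa1, which act on microtubules outside mitosis too, had changes of 0.10 and 0.08 that did not pass, but both passed as higher with quantile normalization (0.64 and 0.77) and with cyclic loess (0.69 and 0.74). All 6 markers of dividing cells fell, against 41.5% of all genes, and 3 of the 6 are also in the partner list. The log2 values of all 6 markers summed to 45.71 to 46.62 on the hairpin arrays and 63.77 to 64.07 on the control arrays. In such bulk samples fewer dividing cells and less RNA per dividing cell cannot be told apart.

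Within kinesin-1, the general carrier of vesicles and mitochondria, both heavy and light chains held genes that rose and genes that fell in the deposited values, though the fall of the light chain Klc1 did not hold in 2 other scalings. Kif5b, the heavy chain made in most tissues, read 9.69, 9.96 and 9.60 under the hairpin and 10.89, 10.88 and 10.88 in the control. It fell by 1.13 (SE 0.10, limma, adjusted p = 1.66e-06), by 0.54 once quantile-normalized and by 0.51 with cyclic loess. Its other probe set fell by 0.74, with -0.10 under cyclic loess, which did not pass. Kif5a, a heavy chain best known from neurons, read 7.81, 7.51 and 7.62 against 6.50, 6.64 and 6.30. It rose by 1.17 (SE 0.11, limma, adjusted p = 2.64e-06), or by 1.49 once quantile-normalized and 1.41 with cyclic loess. The remaining Kif5a probe sets rose by 0.56 and 0.30 as deposited. With cyclic loess they had -0.05 and -0.21, which did not pass. The size of the rise, and with cyclic loess whether there is a rise, rests on the probe set used. For Kif5c, the remaining heavy chain, the probe set used fell by 0.56, while the others, at lower levels, rose by 1.07 and 0.69. No single direction can be given for it.

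Among the light chains, which bind cargo, Klc3 rose most. It read 6.93, 6.90 and 6.92 against 5.70, 5.64 and 5.53, a rise of 1.29 (SE 0.08, limma, adjusted p = 1.40e-07), and its other probe set rose by 1.11. The groups stayed apart, and the rise was 1.32 once quantile-normalized and 1.08 with either of the remaining scalings. Klc4 rose by 0.85 (SE 0.10), and by 0.63 to 1.08 in the other scalings. Klc2, the light chain with 8.38, 8.45 and 8.30 against 8.04, 7.96 and 7.93, rose by 0.40 (SE 0.08). Its change was 1.06 once quantile-normalized, 1.05 with cyclic loess and, with median centring, 0.18, which did not pass. It lay in the eighth decile, where the median change was -0.69. Klc1 read 8.35, 8.32 and 7.88 against 8.72, 8.72 and 8.72. It had a change of -0.54 that turned to 0.17 once quantile-normalized and 0.15 with cyclic loess, both short of the threshold, and its other probe sets ran from -0.12 to 0.60.

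Kinesin-2, which drives transport in the cilium and towards the cell periphery, fell most in its adaptor. Kifap3, which joins the Kif3 motors to cargo, read 7.05, 6.78 and 6.86 against 8.32, 8.27 and 8.19 and fell by 1.36 (SE 0.09, limma, adjusted p = 2.52e-07). Its 3 probe sets gave -1.36, -1.32 and -1.34, and it fell by 0.89 once quantile-normalized and by 0.88 with cyclic loess. The motor subunits behaved otherwise. Kif3a read 7.34, 7.27 and 7.24 against 7.56, 7.49 and 7.53, a change of -0.24 that passed as lower (SE 0.08, limma, adjusted p = 0.0146) and as higher once quantile-normalized (0.22) or with cyclic loess (0.17). Without control replicate 1 its change of -0.22 did not pass. Kif3b read 8.19, 8.18 and 8.35 against 8.33, 8.19 and 8.33, with overlapping groups and a change of -0.05 that did not pass. Once quantile-normalized it passed as higher (0.65), as with cyclic loess (0.62), and with median centring as lower (-0.26). Kif3c, the alternative partner of Kif3a, had 0.26 (SE 0.12, limma, adjusted p = 0.0526), which did not pass. It passed as higher once quantile-normalized (0.66), with cyclic loess (0.57), without control replicate 1 (0.37) and without shAMPKα2 replicate 2 (0.33). The other probe set of Kif3c passed as higher as deposited (0.49), but its -0.10 with cyclic loess did not pass.

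Several vesicle motors fell in all 4 scalings. Kif13a, a kinesin-3 of recycling endosomes, read 6.27, 6.45 and 6.68 against 8.26, 8.34 and 8.22. It fell by 1.81, the most among the 18 genes of cargo transport (SE 0.11, limma, adjusted p = 9.76e-08). The dimmer probe sets of Kif13a had -0.30, which passed, and 0.07, which did not, so the size depends on the probe set. Kifc3, a minus-end motor of epithelial cells that acts at adherens junctions, read 8.60, 8.39 and 8.36 against 9.96, 9.89 and 9.93 and fell by 1.47 (SE 0.09), or by 0.72 once quantile-normalized. Kif1c, a kinesin-3 that carries Golgi-derived and integrin vesicles, read 6.91, 6.70 and 6.78 against 8.30, 8.24 and 8.18 and fell by 1.44 (SE 0.09), or by 0.98 with cyclic loess. Kif16b, a motor of early endosomes, stood at 6.85, 6.63 and 7.10 against 6.79, 6.73 and 6.85. Its change of 0.07 did not pass, and its 5 probe sets went both ways, from -1.94 to 1.01.

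Kif1a, Kif1b and Kifc2 were motors at lower levels that rose. Kif1a, which moves synaptic vesicle precursors, rose by 0.79 (SE 0.09) and Kifc2, a minus-end motor of neurons, by 0.88 (SE 0.11). These were 0.25 and 0.32 with cyclic loess, where both passed, but the other probe sets of Kif1a had 0.44, which passed, and -0.10, which did not. Kif1b, which transports mitochondria and vesicles, rose by 0.54 (SE 0.10), but its 0.07 once quantile-normalized and 0.01 with cyclic loess did not pass. The median change of all genes was 0.71 in the second decile, which held Kif1a and Kif1b, and 0.80 in the third, which held Kifc2, and these 3 genes lay between the quartiles of their deciles. All 4 neuronal markers rose as deposited, from 0.38 for Snap25 to 1.20 for Tubb3, where 43.6% of all genes did. In the lowest 3 deciles of level, which held these markers, 77.9% to 85.3% of all genes did. Snap25 (-0.02 and -0.03) and Rbfox3 (0.36 and 0.28) did not pass once quantile-normalized or with cyclic loess. All 4 markers lay within the lowest 25% of genes by level. Their log2 values summed to 19.29 to 20.67 on the hairpin arrays against 16.55 to 16.75. Their part in the values of Kif1a, Kif1b and Kifc2 was not tested. Of the 18 cargo-transport kinesins, 6 were lower and 5 higher in all 4 scalings, where 26.4% and 25.5% of all genes were. These counts rest on 1 probe set per gene. The 6 include Kif5c, whose other probe sets rose by 1.07 and 0.69 as deposited.

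**Figure D3:**
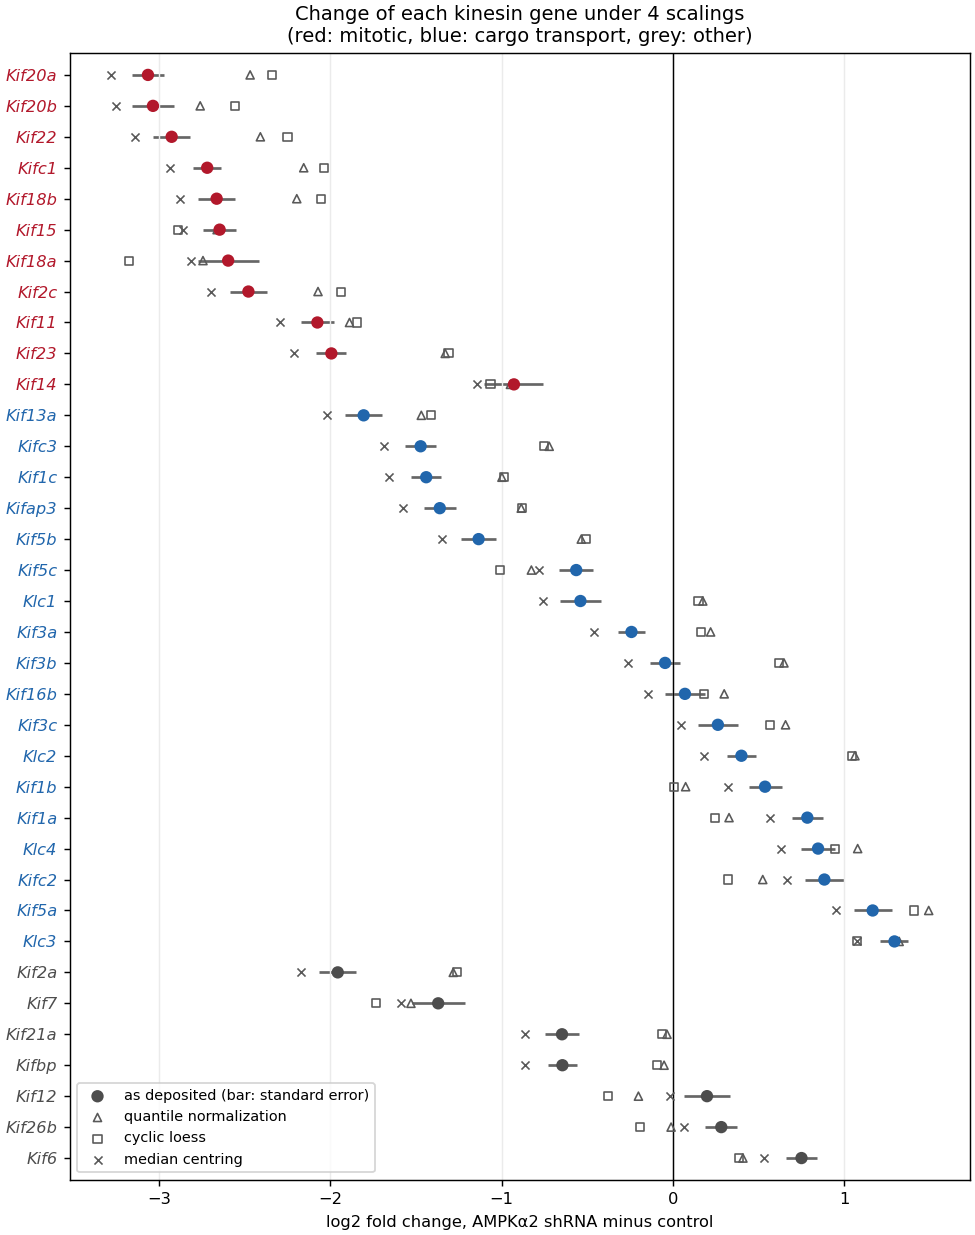
Log2 fold change of each kinesin gene (horizontal axis, AMPKα2 shRNA minus control) as deposited, with its standard error, and after 3 other scalings. All mitotic kinesins stay left of zero under each scaling, while Klc1, Kif3a and Kif3b move from left of zero to right of it after quantile normalization and cyclic loess.

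Kinesins of other roles included Kif2a, a microtubule depolymerase that works both at spindle poles and in neurites. It read 7.59, 7.69 and 7.28 under the hairpin and 9.43, 9.46 and 9.53 in the control, and it fell by 1.96 (SE 0.11, limma, adjusted p = 6.06e-08). The 2 further Kif2a probe sets fell by 1.65 and fell by 2.14. Kif7, which tunes Hedgehog signalling at the tip of the primary cilium, read 4.95, 5.60 and 5.38 against 6.61, 6.89 and 6.54 and fell by 1.37 (SE 0.16), and it fell by 1.73 with cyclic loess, in a decile with a median of 0.64. Kif2a and Kif7 kept their fall in all 4 scalings. Kif21a, which restrains microtubule growth at the cell cortex, and Kifbp, which binds kinesins and blocks their hold on microtubules, both had -0.65, but -0.03 and -0.05 once quantile-normalized and -0.07 and -0.09 with cyclic loess, none of which passed. Kif6, linked to motile cilia, rose by 0.75 from 3.26, in the lowest decile of level, where 77.9% of all genes passed as higher. Kif26b, an unusual kinesin needed in kidney development, had 0.28, which passed as deposited but not in the other scalings (-0.01, -0.19 and 0.07). It did not pass without control replicate 1 (0.27) or control replicate 2 (0.26) either. The dimmer probe sets of Kif26b had 0.93 and 0.27, which passed as higher, and -0.003, which did not pass. With cyclic loess these were 0.33, which passed as higher, -0.12, which did not pass, and -0.40, which passed as lower. Kif12, a kinesin of kidney and liver epithelia, read 5.61, 5.31 and 5.42 against 5.56, 5.18 and 5.01. Its change of 0.20 did not pass, but it passed as lower with cyclic loess (-0.38) and as higher without control replicate 1 (0.35).

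**Figure D4:**
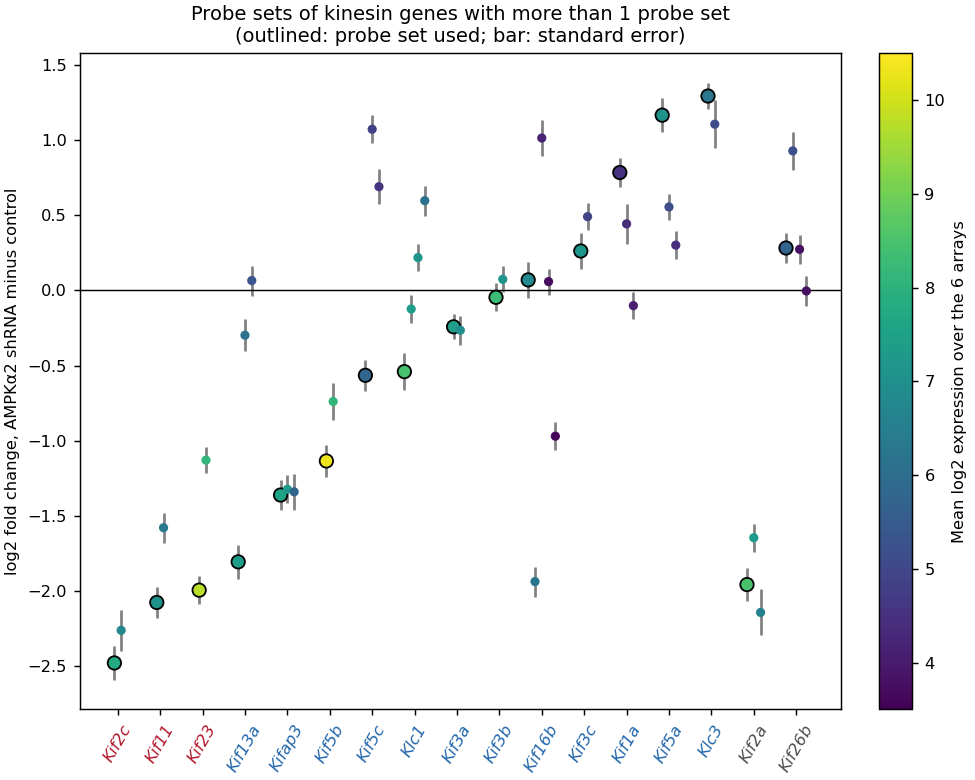
Log2 fold change (vertical axis, AMPKα2 shRNA minus control) of each probe set of the 17 kinesin genes with more than 1, with standard errors and with mean log2 expression as colour. The probe sets of Kif2c, Kif11, Kif23, Kifap3, Kif5b, Kif3a and Kif2a all lie below zero. Those of Kif5c, Klc1 and Kif16b lie on both sides, with some that passed as lower and some as higher. Probe sets of Kif13a, Kif1a, Kif3b and Kif26b also lie on both sides, but did not pass in both directions.

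Of the 17 kinesin genes with more than 1 probe set, 7 had all of them lower, 2 had all of them higher and 3 (Kif5c, Klc1 and Kif16b) had some that passed as lower and some as higher. Over all 31042 probe sets 81.9% passed.

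Of 20 listed adaptors and regulators of cargo transport 18 were measured, of which 7 fell, 8 rose and 3 missed the threshold, and their median was 0.03. These are shares of 38.9% lower and 44.4% higher, close to the 41.5% and 43.6% of all genes. In all 4 scalings 5 were lower and 2 higher, where 26.4% and 25.5% of all genes were. Spag9, a scaffold that links kinesin-1 and dynein to cargo, read 7.39, 7.42 and 7.16 against 9.26, 9.26 and 9.25 and fell by 1.93 (SE 0.09). Rhot1, the mitochondrial anchor of kinesin-1 also called Miro1, fell by 1.30 (SE 0.09), and Fez2, a kinesin adaptor, by 1.16 (SE 0.10). Once quantile-normalized, Spag9 fell by 1.30, Rhot1 fell by 0.60 and Fez2 fell by 0.40. Mapk8ip2, a scaffold that binds kinesin light chains, rose by 1.06 (SE 0.12), the adaptor gene Fez1 by 0.90 (SE 0.16) and Rab3gap1 by 0.76 (SE 0.09). The change of Fez1 was 0.30 with cyclic loess and did not pass, while that of Rab3gap1 was 1.42 once quantile-normalized and 1.43 with cyclic loess.

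Cytoplasmic dynein with its activator dynactin carries cargo the opposite way. Of 22 listed genes 18 were measured, of which 14 fell, 3 rose and 1 missed the threshold, and their median was -0.68. The list also holds Bicd1 and Bicd2, which code for dynein adaptors rather than parts of either complex. Bicd2 is counted among the falls, with a fall of 1.03, and was lower in all 4 scalings. The shares were 77.8% lower and 16.7% higher, against 41.5% and 43.6% of all genes, but most of these genes lay in level deciles 8 to 10, where 67.8% to 75.1% of all genes were lower. The split moved with the scaling. Once quantile-normalized 6 fell and 7 rose, where 28.9% of all genes were lower and 43.8% higher. With cyclic loess 7 fell and 7 rose, where these shares were 31.5% and 40.2%, and the median was -0.02. In all 4 scalings 6 fell and 3 rose, against 26.4% and 25.5% of all genes. Dynlt3, a dynein light chain, read 7.15, 7.21 and 7.24 against 9.42, 9.38 and 9.39 and fell by 2.19 (SE 0.08). Dctn1, which codes for p150Glued and joins dynein to microtubules, fell by 1.41 (SE 0.08) and the light intermediate chain gene Dync1li2 by 1.32 (SE 0.08). Dynlrb2, Dync1i1 and Dynll2 rose by 1.22 (SE 0.10), 1.02 (SE 0.11) and 0.53 (SE 0.10), and these were the 3 that rose in each scaling.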

How the data were processed

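Gene expression was measured on 6 Affymetrix rat arrays from biotin-labelled cRNA, per the labels' protocols. The authors deposited log2 values, 1 per probe set and array; the background correction, summarisation and normalization behind them are not given in the sources used here. Array controls (57) were left out. Of 31042 other probe sets, 20826 had 1 gene symbol in the platform annotation, 436 several and 9780 none, and genes were taken from the first kind. Symbols of all 36 kinesins matched RefSeq (GRCr8) by Entrez identifier.

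Tests used lmFit and eBayes of limma 3.58.1 (R 4.3.3, 2-sided) over 14217 genes, with Benjamini-Hochberg adjustment and a threshold of 0.05; fold changes are log2, shAMPKα2 minus shCtrl. Other scalings, level filters, probe set choices, limma options and leaving out each array were tried as alternatives. The steps were tested on simulated data. No list was given a test of its own. With 3 arrays against 3, an exact permutation test cannot give a 2-sided p under 0.1. Replicate numbers were not used to pair the arrays in the main fit. With 3 arrays per group, the correlations given below cannot decide whether same-numbered arrays were prepared together. The members, role lists and alternatives were chosen with earlier results of these data known. All members could be named, and of each partner list the 3 largest falls and rises that passed, besides Cenpe, Prc1 and Racgap1. Mapre1 and Numa1 were named after their values were seen, as the mitotic partners that missed the threshold.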

Additional observations from a re-analysis of the deposited data

How the results depend on the processing

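Without the lowest 50% of genes 22 kinesins remained, of which 21 passed, 3 higher (all 3 of cargo transport, and 0 of the other kinesins, of which 3 passed), and the mitotic minus cargo-transport median change was -2.152. After quantile normalization 3 other kinesins passed, 2 lower and 1 higher, and after cyclic loess, median centring or without the lowest 25% of genes 1 was higher. Leaving out each array in turn gave 1 to 2 higher other kinesins, 1 without control replicate 2. The mitotic minus cargo-transport median change was -2.228 after cyclic loess and -3.093 with the most variable probe set. Mitotic partners that passed as higher numbered 2 after quantile normalization, cyclic loess or with the most variable probe set and 1 with the mean of probe sets. Cargo partners that passed as higher numbered 5 after cyclic loess, 3 after median centring, 4 without the lowest 25% of genes and 2 without the lowest 50%. Genes of the dynein and dynactin list, with Bicd2 among them, were 6 lower and 7 higher when quantile-normalized, 7 and 7 after cyclic loess.

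Signs turned in some cargo-transport and other kinesins. Quantile normalization gave Kif12 -0.201, Kif26b -0.011, Kif3a 0.22, Kif3b 0.648 and Klc1 0.174. Cyclic loess gave Kif12 -0.38, Kif26b -0.192, Kif3a 0.165, Kif3b 0.617 and Klc1 0.15. Median centring gave Kif12 -0.017 and Kif16b -0.146. The mean of probe sets gave Kif16b -0.353, Kif3b 0.014, Kif5c 0.4 and Klc1 0.038, and the most variable probe set gave Kif16b -1.937, Kif5c 1.073 and Klc1 0.598. Without shAMPKα2 replicate 3 Kif16b had -0.048, in a range of -0.048 to 0.185 over the arrays left out. The cause of these turns was not tested. With the replicate number as a block, 33 kinesins passed against 32, with Kif3c added as higher (0.263, limma, adjusted p = 0.0436), and no sign turned. Same-numbered arrays had correlations of deviations of -0.021, 0.014 and -0.098. All 11 mitotic kinesins passed as lower under each alternative that kept them.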

Other observations

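Besides its own probe set, Kif1b is named with Cenps, Pgd and Cort on 4 probe sets that the platform annotation assigns to several genes, and these entered no comparison of kinesins. They read 6.28 ± 0.22 (SD, n = 3) on the AMPKα2 shRNA arrays against 7.37 ± 0.08 on the control arrays, 7.63 ± 0.14 against 6.67 ± 0.07, 6.398 ± 0.23 against 6.76 ± 0.05, and 6.28 ± 0.29 against 6.56 ± 0.13. In the fit over all probe sets the first and the third passed as lower, the second as higher and the fourth did not pass.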
